A study of Mus musculus with 23 samples.

Results

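The 10 genes described here encode the T-cell receptor, molecules that work directly with it and a transcription factor of the T lineage. They were chosen by symbol from the 47729 genes of the count table, with their levels in these libraries already known, and all 10 were found. They comprise the CD3 chains (Cd3d, Cd3e, Cd3g and Cd247), the constant regions of the receptor (Trac, Trbc1 and Trbc2), the kinase Lck, the co-stimulatory receptor Cd28 and the transcription factor Bcl11b. Because the levels themselves were used to choose the genes and the groups set against each other, they are described below without a test. A rule for outlying values is used near the end only to point at libraries.

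The T-cell receptor is a pair of chains, alpha and beta, that recognises a peptide held by an MHC molecule. The pair has no signalling part of its own and depends on the CD3 chains and the zeta chain, whose tails are phosphorylated by Lck. The variable part of each chain is assembled from gene segments in the developing T cell, whereas the constant region is shared. The receptor is a defining feature of T cells, to which dendritic cells present the peptide.

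The data were RNA-seq libraries of dendritic cells (DCs) sorted from the spleen of wild type BALB/c mice. The 4 sorted populations were labelled by CD8 and CD172: DC1a (CD8hi CD172-), DC1b (CD8int CD172+), DC2 (CD8lo CD172hi) and DC3 (CD8- CD172lo). Untreated mice gave pools 1 and 2, both assigned to batch 1. Mice given TLI, a term that the labels do not spell out and that commonly stands for total lymphoid irradiation, gave pools 1 and 2 in batch 1 and pools 3 and 4 in batch 2. There were 8 untreated libraries, 7 TLI libraries of batch 1 and 8 TLI libraries of batch 2, since the DC2 library of TLI pool 2 was not analysed here. No untreated library belonged to batch 2, so batch 2 and treatment cannot be told apart when batch 2 is set against the untreated mice. The number and age of the mice in a pool, the radiation dose and the interval to harvest were not given in the sources used here. The sort was described as a CD11c enrichment followed by staining for CD11c, B220, MHC class II, CD8a and CD172a. An antibody to CD3 was part of the gating described for flow cytometry but was not named for this sort.

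Library totals ran from 19256447 to 36997890 counts, with a median of 27199618. A count of 3, taken here as the limit of detection that a count of 0 allows, was worth 0.0811 to 0.156 CPM (counts scaled to a common library total), and such limits cover counting error only. The markers of classical DCs were present throughout: 12 or 13 of 13 were over 3 counts in each library, and their summed level was 34844 to 122868 CPM in TLI batch 1 and 12404 to 72200 CPM in the other 16 libraries. In bulk RNA a smaller number of cells of a type and less RNA per cell cannot be told apart. Losses in amplifying cDNA from a low RNA input were not tested, so a count of 0 is no proof of absence.

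The T-cell receptor complex genes were detected together in the TLI libraries of batch 1. Between 9 and 10 of the 10 genes were over 3 counts in each of those 7 libraries, against 1 to 6 in the untreated libraries and 2 to 8 in TLI batch 2. For 4 of the 10 genes, Cd3e, Cd3g, Trac and Trbc2, every TLI batch 1 library lay above all other 16 libraries. Over all genes with a mean of at least 1 CPM, 28 of 14065 (0.199%) were placed in this way. The groups were part of the rule by which the genes were chosen, so nothing is read from this difference. The value nearest the line was that of Trbc2, with 18.0 CPM in the lowest TLI batch 1 library and 11.1 CPM in the highest of the others. The other 24 genes placed in this way included the globin genes Hba-a1, Hba-a2, Hbb-bs and Hbb-bt, the cytokine Ifng and the adhesion molecule Cd2.

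**Figure D1:**
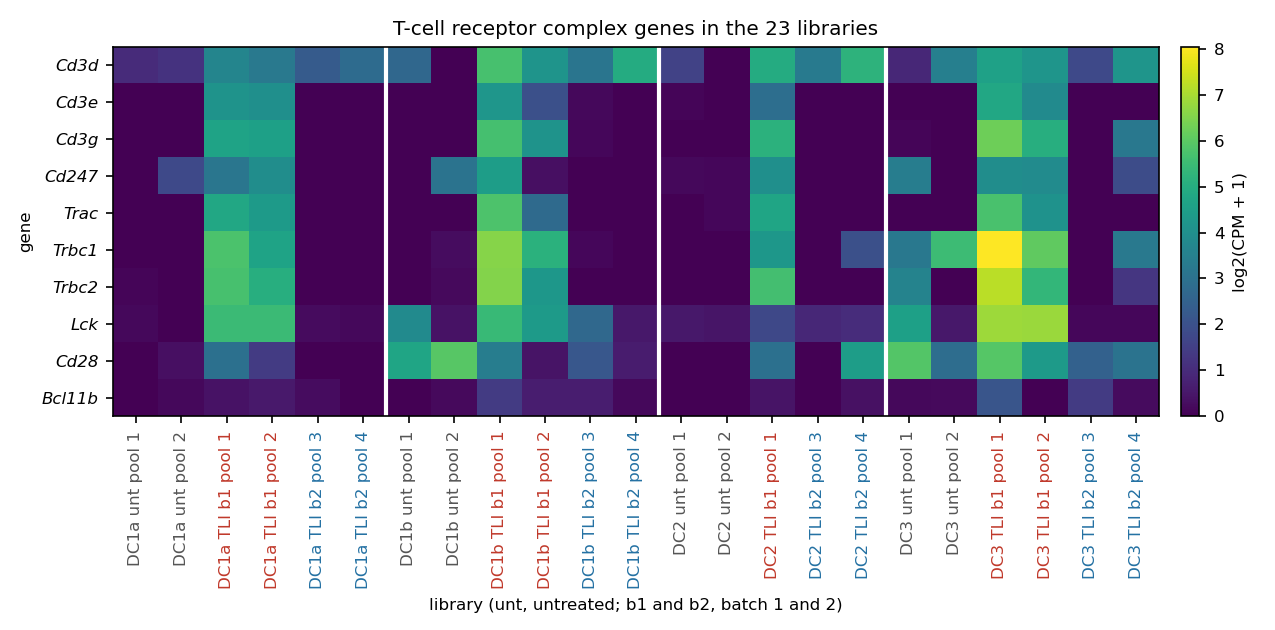
Level of each of the 10 genes (rows) in each of the 23 libraries (columns), as log2(CPM + 1) by colour. Columns are ordered by population and then by arm, with untreated (unt) names in grey, TLI batch 1 (b1) in red and TLI batch 2 (b2) in blue. Cd3e and Trac are at 2.93 CPM or more in all 7 TLI batch 1 columns and at 0.138 CPM or less in all others.

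Cd3g, Cd3d and Cd3e encode the gamma, delta and epsilon chains of CD3 and lie side by side on chromosome 9. Cd3g (chr9:44969572-44980431, minus strand) and Cd3d (chr9:44981786-44987339, plus strand) point away from each other, with 1355 bases between their start sites. Cd3e (chr9:44998740-45009627, minus strand) begins farther along and ends 11401 bases from the end of Cd3d. The 250 bases before each start site are shown because these neighbours differed in where they were detected. They are given 5′ to 3′ on the strand of the gene, from RefSeq on GRCm38.p6, and capitals mark the letters CAGGTG (an E-box) or CTTTGA (a TCF/LEF motif) on either strand.
Cd3g, chr9:44980432-44980681: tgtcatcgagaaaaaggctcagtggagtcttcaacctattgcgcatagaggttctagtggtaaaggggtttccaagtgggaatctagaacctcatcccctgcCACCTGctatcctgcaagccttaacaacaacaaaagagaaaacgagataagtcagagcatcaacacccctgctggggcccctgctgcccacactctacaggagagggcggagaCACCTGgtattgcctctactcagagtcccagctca
Cd3d, chr9:44981536-44981785: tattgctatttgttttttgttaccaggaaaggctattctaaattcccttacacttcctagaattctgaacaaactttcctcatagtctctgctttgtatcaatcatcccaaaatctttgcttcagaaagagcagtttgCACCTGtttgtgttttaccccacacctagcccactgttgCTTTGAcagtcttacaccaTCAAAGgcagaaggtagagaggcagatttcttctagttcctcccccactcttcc
Cd3e, chr9:45009612-45009861: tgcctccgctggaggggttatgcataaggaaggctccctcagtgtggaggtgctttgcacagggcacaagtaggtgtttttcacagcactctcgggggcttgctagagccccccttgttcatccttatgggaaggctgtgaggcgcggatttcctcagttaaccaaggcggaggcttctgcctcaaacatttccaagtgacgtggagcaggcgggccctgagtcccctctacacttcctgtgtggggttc

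The window of Cd3g held the E-box letters at 148 and 35 bases before the start site. The window of Cd3d held them at 112 bases and the TCF/LEF letters at 73 and 54 bases before the start site. Neither motif was found in the window of Cd3e. Of all 32841 windows of this length, 17.2% held the E-box letters and 13.8% the TCF/LEF letters. Windows were used for 6 of the 10 genes. A match describes the letters and is not evidence of a bound site.

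Cd3e, the chain most often used to mark T cells, was found almost exclusively in TLI batch 1. Its level was 16.4 and 15.1 CPM in DC1a, 17.8 and 2.93 CPM in DC1b, 6.46 CPM in DC2, and 27.3 and 13.4 CPM in DC3 of pools 1 and 2. In the other 16 libraries the lowest and the median were 0 and the highest was 0.138 CPM, from 5 counts in DC1b of TLI pool 3. The groups did not overlap, and 14 of those 16 libraries held no count.

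Cd3g stood at 24.2 and 22.7 CPM in DC1a, 49.8 and 16.5 CPM in DC1b, 35.0 CPM in DC2, and 75.8 and 32.0 CPM in DC3 of TLI batch 1. In the untreated libraries the lowest and the median were 0 and the highest was 0.0910 CPM. The TLI libraries of batch 2 likewise had a median of 0, but DC3 of pool 4 reached 8.29 CPM, from 291 counts. Every library of TLI batch 1 lay above that value.

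Cd3d differed from its neighbours in being detected in most libraries. The level in TLI batch 1 was 11.7 and 8.57 CPM in DC1a, 50.7 and 16.9 CPM in DC1b, 29.6 CPM in DC2, and 23.4 and 17.4 CPM in DC3. In TLI batch 2 all 8 libraries were over 3 counts, with a lowest level of 2.39, a median of 8.32 and a highest of 35.8 CPM, so that both TLI batches overlapped. The untreated libraries were lower, with a lowest level of 0, a median of 1.12 and a highest of 10.1 CPM. Thus DC2 of TLI pool 4 held 35.8 CPM of Cd3d and no count of Cd3e or Cd3g.

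Cd247 (chr1:165788681-165877277, plus strand) encodes the zeta chain, which carries most of the signalling motifs of the complex. It was present at 7.98 and 14.2 CPM in DC1a, 21.1 and 0.257 CPM in DC1b, 15.1 CPM in DC2, and 14.4 and 13.7 CPM in DC3 of TLI batch 1. The highest levels elsewhere were 9.74 CPM in DC3 of untreated pool 1, 7.40 CPM in DC1b of untreated pool 2, 2.62 CPM in DC3 of TLI pool 4 and 2.43 CPM in DC1a of untreated pool 2. Those libraries held counts of Cd247 without Cd3e. Overlap with other annotated genes, among them Pou2f1 on the other strand, makes the counts of Cd247 uncertain, because the library kit does not mark the strand.

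Trac (chr14:54220521-54224206, plus strand), the constant region of the alpha chain, was the gene most completely limited to TLI batch 1. Its level was 27.4 and 19.96 CPM in DC1a, 54.6 and 5.87 CPM in DC1b, 25.3 CPM in DC2, and 52.5 and 16.1 CPM in DC3. Of the other 16 libraries, 15 held no count, and the remaining library, DC2 of untreated pool 2, held 2 counts (0.104 CPM). All 8 libraries of TLI batch 2 were at 0 for Trac.

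Trbc1 (chr6:41538218-41539881) and Trbc2 (chr6:41546730-41548352), both on the plus strand with 6849 bases between them, are alternative constant regions of the beta chain. Their coding sequences of 518 bases differ at 23 positions (95.6% identity), and the first 259 bases are identical, so reads from that stretch could be counted for either gene. The end of each coding sequence, bases 361 to 518, is shown to mark where the genes can be told apart, with the differing bases in capitals.
Trbc1: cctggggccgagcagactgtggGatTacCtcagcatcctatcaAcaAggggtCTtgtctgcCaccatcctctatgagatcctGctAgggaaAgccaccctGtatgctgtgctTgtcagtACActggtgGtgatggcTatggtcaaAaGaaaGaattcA
Trbc2: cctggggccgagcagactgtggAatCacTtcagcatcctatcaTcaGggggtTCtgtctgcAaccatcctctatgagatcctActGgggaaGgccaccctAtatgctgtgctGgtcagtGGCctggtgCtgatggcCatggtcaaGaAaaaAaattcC

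Trbc2 stood at 50.8 and 31.7 CPM in DC1a, 92.8 and 18.0 CPM in DC1b, 48.7 CPM in DC2, and 149 and 39.4 CPM in DC3 of TLI batch 1. Elsewhere it reached 11.1 CPM in DC3 of untreated pool 1 and 1.42 CPM in DC3 of TLI pool 4, and the other 14 libraries were at or under 0.160 CPM. Trbc1 stood at 53.0 and 24.4 CPM in DC1a, 95.6 and 34.1 CPM in DC1b, 18.2 CPM in DC2, and 263 and 66.0 CPM in DC3 of TLI batch 1. Unlike Trbc2, it overlapped with the untreated mice.

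The overlap of Trbc1 came from DC3 of untreated pool 2, with 45.0 CPM. That library held 1149 counts of Trbc1 and none of Trbc2, Trac, Cd3e or Cd3g. DC3 of untreated pool 1 held 8.33 CPM of Trbc1 and 11.1 CPM of Trbc2. Without DC3 of untreated pool 2, an alternative chosen after the values were seen, Trbc1 joined the genes whose TLI batch 1 libraries lay above all others. Within TLI batch 1 the counts of Trbc1 were 0.375 to 1.89 times those of Trbc2.

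Per kilobase of exon, the constant regions were the highest of the 10 genes in TLI batch 1. Their median levels over the 7 libraries were 70.7 CPM per kilobase for Trbc1, 70.4 for Trbc2 and 27.0 for Trac. Lck followed with a median of 14.9 CPM per kilobase, ahead of Cd3g with 9.78 and Cd3d with 9.56. The medians of Cd3e (3.69), Cd247 (2.67), Cd28 (1.13) and Bcl11b (0.0589 CPM per kilobase) were lower. The ranges of neighbours in this order overlapped, and the library kit and the exon lengths of the annotation both bear on it.

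Lck (chr4:129548344-129573641, minus strand) is the Src-family kinase that starts receptor signalling and is also used by natural killer cells. Its level in TLI batch 1 was 43.5 and 43.7 CPM in DC1a, 42.3 and 20.02 CPM in DC1b, 2.38 CPM in DC2, and 115 and 114 CPM in DC3. Only a trace was therefore seen in DC2, where Trac and Trbc2 were at 25.3 and 48.7 CPM. In the untreated libraries Lck reached 22.7 CPM in DC3 of pool 1 and 13.5 CPM in DC1b of pool 1, and the other 6 were at or under 0.448 CPM. In TLI batch 2 the lowest level was 0.105, the median 0.318 and the highest 5.59 CPM.

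Cd28 (chr1:60716800-60773359, plus strand), the receptor for CD80 and CD86 on the DC, differed from most of the receptor chains in its levels in untreated DC1b and DC3. Pearson's r of its log2 CPM with the mean of the other genes was 0.51 over the 23 libraries and 0.83 within TLI batch 1. In the untreated mice it was 25.8 and 60.6 CPM in DC1b, 58.5 and 6.31 CPM in DC3, and at most 0.270 CPM in DC1a and DC2. In TLI batch 1 it was 9.66 and 0.330 CPM in DC1b, 59.9 and 19.98 CPM in DC3, 6.89 and 1.65 CPM in DC1a, and 6.85 CPM in DC2. In TLI batch 2 the highest level was 21.1 CPM, in DC2 of pool 4. Thus the DC1b libraries of TLI batch 1 lay below those of the untreated mice, whereas the DC1a and DC2 libraries lay above them.

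Bcl11b (chr12:107910403-108003602, minus strand), a zinc-finger factor needed for commitment to the T lineage, was barely detected in any arm. Its highest level was 3.32 CPM, in DC3 of TLI pool 1, followed by 1.65 CPM in DC1b of the same pool and in DC3 of TLI pool 3. DC3 of TLI pool 2 held no count of Bcl11b beside 16.1 CPM of Trac. In the untreated libraries it did not exceed 0.160 CPM.

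When each population was taken by itself, all 10 genes lay higher in TLI batch 1 than in every other library of DC1a, a position held by 21.8% of all 14065 genes. The count was 6 of 10 in DC1b (7.58% of all genes), 8 of 10 in DC2 (18.9%) and 8 of 10 in DC3 (9.70%). The genes Cd3e, Cd3g, Trac, Trbc1, Trbc2 and Lck did so in each of the 4 populations, which 87 of the 14065 genes (0.619%) did. Cd28 failed in DC1b, DC2 and DC3, and Cd3d failed in DC1b and DC2. Since DC2 had a single library of TLI batch 1, its counts rest on that library. Bcl11b, among the genes counted in DC1a and DC2, was near the limit of detection. It held 9 and 13 counts in DC1a of TLI batch 1, against 8 in TLI pool 3. In DC2 it held 8 counts in TLI batch 1 and 8 in TLI pool 4, so only library totals set them apart. With means of 0.950 CPM in TLI batch 1 and 0.222 CPM elsewhere, Bcl11b is not among the 14065 genes.

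The sum of the 10 genes summarised the order of the populations. In TLI batch 1 it was 242 and 183 CPM in DC1a, 436 and 115 CPM in DC1b, 188 CPM in DC2, and 783 and 332 CPM in DC3. In the untreated mice it was 1.19 and 4.09 CPM in DC1a, 44.7 and 68.9 CPM in DC1b, 2.69 and 0.571 CPM in DC2, and 111 and 62.0 CPM in DC3. In TLI batch 2 it was 4.38 and 6.14 CPM in DC1a, 17.9 and 31.3 CPM in DC1b, 9.73 and 61.1 CPM in DC2, and 8.79 and 45.8 CPM in DC3. The lowest library of TLI batch 1, at 115 CPM, was therefore close to the highest untreated library, at 111 CPM.

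**Figure D2:**
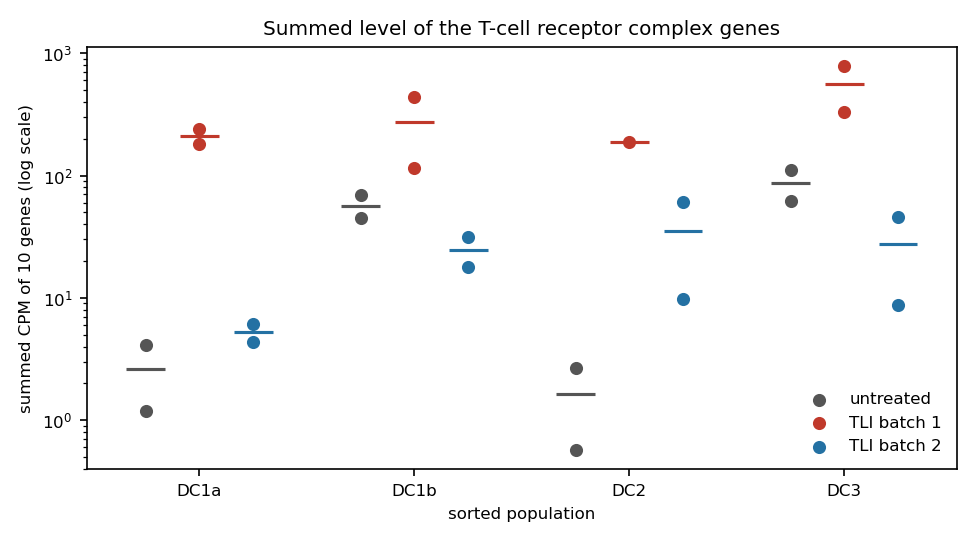
Summed CPM of the 10 genes (log scale) by sorted population. Each point is 1 library, coloured by arm, and short lines mark the mean of an arm. In DC1a the libraries of TLI batch 1 (183 and 242 CPM) are far from the others (at most 6.14 CPM), whereas in DC3 the untreated libraries reach 111 CPM.

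The mean sum in DC1a was 212 ± 42.1 CPM (SD, n = 2) in TLI batch 1, 80.5 times that of the untreated mice and 40.4 times that of TLI batch 2. The corresponding ratios were 4.86 and 11.2 in DC1b and 6.43 and 20.4 in DC3. For the single DC2 library the ratios were 115 and 5.31. Pool 1 exceeded pool 2 in DC1a, DC1b and DC3 of TLI batch 1, by a factor that was largest in DC1b. The sum in TLI batch 2 was below that of the untreated mice in DC1b and DC3, with ratios of 0.433 and 0.315. It was above it in DC1a and DC2, with ratios of 1.99 and 21.8. Most of the mean sum of 5.26 CPM in DC1a of TLI batch 2 came from Cd3d (4.99 CPM). In DC2 of TLI batch 2 the mean sum was 35.4 ± 36.3 CPM (SD, n = 2), mostly from Cd3d (22.3) and Cd28 (10.6 CPM). Cd3e and Trac were at 0 in these libraries. In untreated DC1b most of the mean sum of 56.8 CPM came from Cd28 (43.2 CPM), and Trbc1 was at 0.0999 CPM. In untreated DC3 most of the mean sum of 86.7 CPM came from Cd28 (32.4), Trbc1 (26.7) and Lck (11.5 CPM). No CD3 chain had a mean over 5.47 CPM in either population.

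The variable segments were counted next. They were not among the chosen genes, but they encode part of the same chains as the constant regions, whose levels were already known. Their counts are therefore not separate from the levels used in the choice, and nothing further is read from the difference between arms. A segment is transcribed at a high level after it has been joined in a T cell, and a mixture of T cells uses many different segments. Of 128 Trav (alpha chain) genes, 22 and 17 were over 3 counts in DC1a of TLI batch 1, 21 and 3 in DC1b, 13 in DC2, and 23 and 11 in DC3. In the other 16 libraries the highest number was 5, found in DC1b and DC3 of TLI pool 4, and the median was 0. Of 35 Trbv (beta chain) genes, 3 to 11 were over 3 counts in TLI batch 1, against 0 to 3 in the other libraries. The groups met for Trbv at 3 segments and overlapped for Trav in DC1b of TLI pool 2.

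**Figure D3:**
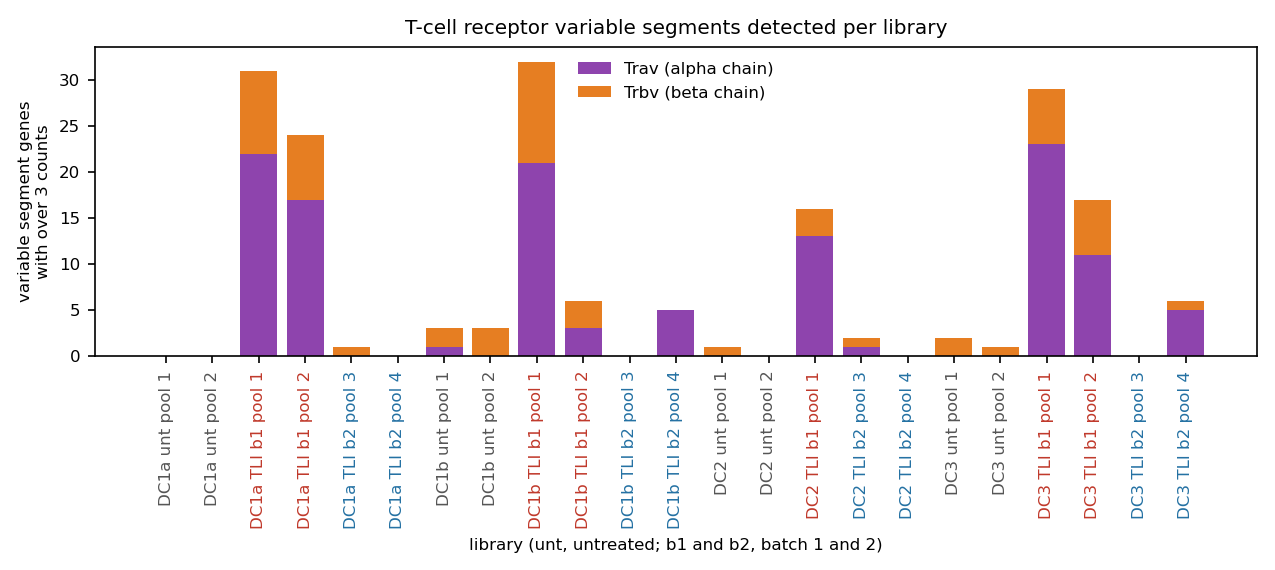
Number of Trav (purple) and Trbv (orange) variable segment genes with over 3 counts in each of the 23 libraries, stacked. Libraries of TLI batch 1 (red names) hold 6 to 32 segments and the others hold 0 to 6.

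The summed level of the Trav and Trbv genes was 9.24 to 68.9 CPM in TLI batch 1. Outside that arm the highest sums were 10.9 CPM in DC3 of TLI pool 4, 5.42 CPM in DC2 of TLI pool 3 and 4.60 CPM in DC3 of untreated pool 1. Segments of the gamma and delta chains, which form the receptor of a different T-cell lineage, were seen mainly in DC3 of TLI batch 1, at 24.6 and 5.54 CPM. Tcrg-C1, a constant region of the gamma chain, held no count in any of the other 16 libraries and reached 22.4 CPM in TLI batch 1. Trdc, the constant region of the delta chain, was detected in all 7 libraries of TLI batch 1 (2.50 to 20.8 CPM) but also reached 15.8 CPM in the untreated mice and 16.2 CPM in TLI batch 2.

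Genes of other blood cells were high in the same libraries as the T-cell receptor complex genes. The 4 hemoglobin genes of the red blood cell summed to 19174 to 132688 CPM in TLI batch 1, against 56.1 to 2269 CPM in the untreated mice and 143 to 7124 CPM in TLI batch 2. Of 8 erythroid genes, 4 lay higher in every TLI batch 1 library than in all others, and all 8 were over 3 counts there. Hba-a1, an alpha globin gene, was at 6404 to 45168 CPM in TLI batch 1 and at most 2330 CPM elsewhere, and Hbb-bs, a beta globin gene, was at 5350 to 36953 and at most 1754 CPM. The part of red blood cell RNA in the result was not tested.

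The sums of the 12 natural killer (NK) cell genes were highest in DC3 of TLI batch 1, at 4798 and 1444 CPM. Its other populations had 323 to 659 CPM, within the 102 to 828.6 CPM of the other 16 libraries over all populations. Within DC1a, however, the libraries of TLI batch 1 (419 and 378 CPM) lay above the other DC1a libraries (102 to 211 CPM). Those of DC1b and DC2 lay within the range of the other arms for the same population. Ncr1, the receptor NKp46 that defines NK cells, was at 1112 CPM in DC3 of TLI pool 1 and at 9.95 CPM or more in all of TLI batch 1, against at most 50.4 CPM elsewhere. Nkg7, a protein of cytotoxic granules, ranged from 31.3 to 1304 CPM in TLI batch 1 and reached 141 CPM in the untreated mice, whereas the receptor Klrk1 overlapped fully (100.2 to 449 CPM in TLI batch 1 and 63.7 to 587 CPM elsewhere). NK cells transcribe Lck, Cd247, Cd3g and Trbc genes to some degree, and their part in the levels of these genes was not tested. Klra8, another NK receptor, was over 3 counts in no library of TLI batch 1 other than DC1b of pool 1. It was near the limit of detection in every arm, at most 0.173 CPM in TLI batch 1 and 0.527 CPM elsewhere, so nothing is read from it.

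**Figure D4:**
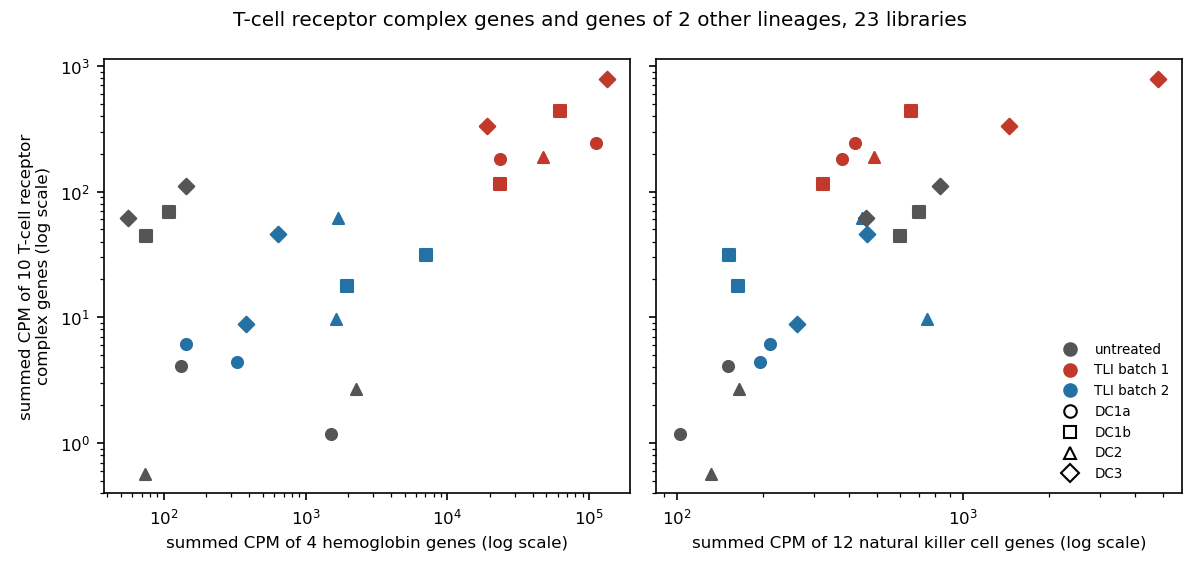
Summed CPM of the 10 T-cell receptor complex genes (vertical, log scale) against the summed CPM of 4 hemoglobin genes (left, log scale) and of 12 NK cell genes (right, log scale) in the 23 libraries. Colour gives the arm and shape the population. The TLI batch 1 libraries stand apart at 19174 CPM or more of hemoglobin genes. On the NK scale those outside DC3 overlap with the other libraries over all populations. Within DC1a they lie above the others (419 and 378 against at most 211 CPM).

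Markers of B cells and neutrophils had other patterns. The 12 B-cell genes summed to 1178 to 29112 CPM in TLI batch 1, within the 334 to 55205 CPM of the other libraries. Most of this was immunoglobulin, with Igkc at up to 54357 CPM and Ighm at up to 5193 CPM. The neutrophil gene S100a8 was high in DC1b and DC2 of both TLI batches, at up to 4580 CPM in batch 1 and 5005 CPM in batch 2, and was at most 5.51 CPM in the untreated mice. Plasmacytoid DC genes had a different pattern again, since Cox6a2 and Klk1 reached 2520 and 2532 CPM in the untreated mice and at most 14.7 and 12.6 CPM after TLI. The high values were those of untreated DC1b, where the 10 plasmacytoid DC genes summed to 6425 and 8823 CPM. In the other untreated libraries they summed to 73.6 to 351 CPM.

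The co-receptors of T cells showed the limits of single markers in this sort. Cd8a, which DC1 cells carry and which was used for the gate, was 600 and 850 CPM in DC1a of TLI batch 1 and 468 and 450 CPM in the untreated DC1a. Cd8b1, the beta chain that pairs with it in T cells, was highest in DC1b of the untreated mice, at 224 and 393 CPM, where Cd3e and Trac held no count. In TLI batch 1 it did not exceed 11.7 CPM.

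Genes near the receptor in the signalling pathway were taken from 3 lists of 64 genes in all, chosen with earlier results of these data known. Counts of DC1a, DC1b and DC3 were added within a pool, because the libraries of a pool share their mice, and the 6 pools were compared with the quasi-likelihood test of edgeR, with p-values adjusted by Benjamini-Hochberg. No gene of 19413 tested passed an adjusted p of 0.05 between TLI batch 1 and TLI batch 2 (0%), and 0 of the 63 list genes tested did. At an unadjusted p under 0.05 there were 34 of the 63 genes, 32 of them higher in TLI batch 1, beside 5283 of all 19413 genes with 2687 higher. DESeq2 called 34 of the 63 on the same pools, beside 4704 of all 19413 genes.

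The other comparisons between arms gave the same count of 0 by edgeR over all 19413 genes (0%). For TLI batch 1 against untreated, 22 of the 63 list genes had an unadjusted p under 0.05, 19 of them higher after TLI, beside 3142 of all genes with 1741 higher. DESeq2 called 17 of the list and 2056 of all genes. For TLI batch 2 against untreated, 23 genes had an unadjusted p under 0.05, of which 2 were higher, beside 3832 of all genes with 1874 higher. DESeq2 called 23 of the list and 2903 of all genes, 41.0% of them higher. Both comparisons of TLI batch 1 share its pools, and both comparisons with untreated mice share the untreated pools. With limma-voom on all 23 libraries and the pool as a replicate block, 34, 13 and 19 list genes were called in the 3 comparisons, in the order given, beside 5283, 834 and 4163 of 22557 genes.

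**Figure D5:**
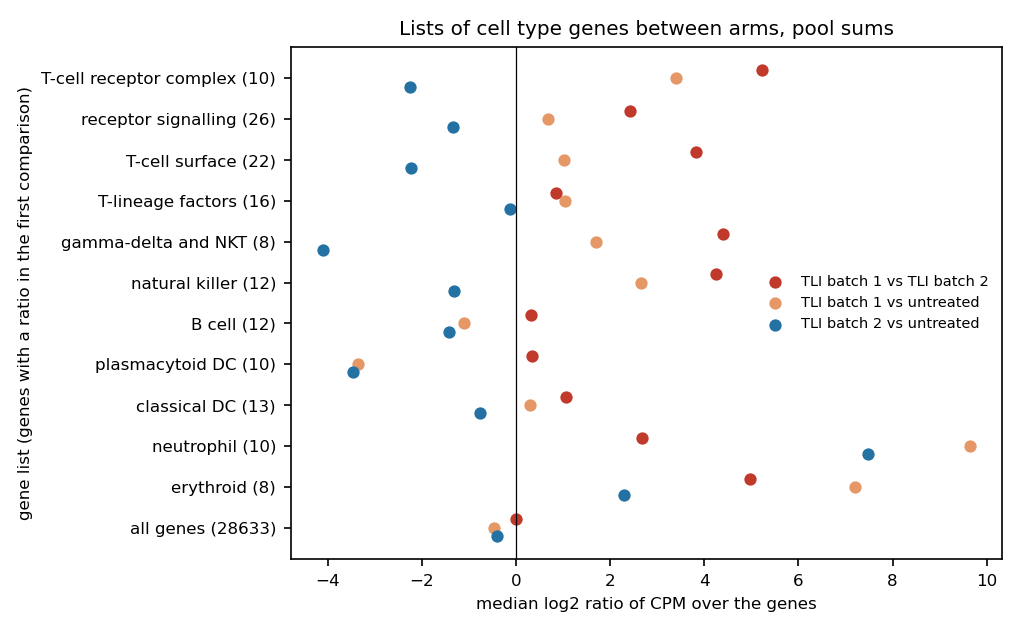
Median log2 ratio of CPM over the genes of each list in 3 comparisons of arms (colours), from counts of DC1a, DC1b and DC3 added within each arm. A group at 0 was set to 3 counts, and genes with both groups at or under 3 counts were left out. The T-cell receptor complex genes lie at 5.23 for TLI batch 1 against TLI batch 2, near the erythroid list at 4.97.

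As levels, the 26 genes of receptor signalling had a median log2 ratio of 2.42 between TLI batch 1 and TLI batch 2, and 21 of them were above 0. The 22 T-cell surface genes had a median of 3.83 with 21 above 0, and the 16 T-lineage factors a median of 0.85 with 11 above 0. Over all genes over 3 counts in either arm the median was -0.0028. For TLI batch 1 against the untreated mice the medians of the 3 lists were 0.67, 1.01 and 1.05, beside -0.47 over all genes, and for TLI batch 2 against the untreated mice they were -1.35, -2.22 and -0.12, beside -0.40.

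Single genes of the lists followed the receptor chains to different degrees. Lat, the adaptor phosphorylated downstream of the receptor, was 3.78 to 52.5 CPM in TLI batch 1 and at most 6.27 CPM elsewhere. Zap70, the kinase that binds the phosphorylated CD3 chains, was 8.91 and 2.92 CPM in DC3 of TLI batch 1, at most 1.99 CPM in its other populations and at most 0.121 CPM elsewhere. Cd2, an adhesion molecule of T and NK cells, was the only gene of the 64 for which every TLI batch 1 library lay above all others (16.3 to 114 against at most 14.1 CPM). Zap70 and Lat were named after their values were seen.

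Between populations, all 23 libraries were compared in a fit of 12 groups, with each population set against the mean of the other 3. This main fit did not account for the pool that libraries shared. In DC3, 7 of the 64 list genes passed, 6 higher (1.03% of all genes were called higher) and 1 lower (0.958%), beside 448 of 22557 genes in all (1.99%). Txk, a kinase of T and NK cells, was higher in DC3 (log2 fold change 3.69 ± 0.85 (SE), adjusted p = 0.0415 by edgeR), and its level was 93.6 and 38.0 CPM in TLI batch 1. Cd96 and Cd226, receptors that T and NK cells share, were higher by 6.57 ± 1.38 and 5.50 ± 1.05, and Ctla4, an inhibitory receptor that binds CD80 and CD86, by 2.73 ± 0.43. The factor Id3 was higher by 2.35 ± 0.56, and Ccr7, the receptor that guides DCs and T cells to lymph nodes, was lower (-3.16 ± 0.46). With the pool as a fixed replicate block, 4 of the 64 genes passed in DC3, and Txk, Cd96, Cd226 and Id3 did not (adjusted p = 0.124, 0.126, 0.0519 and 0.145 by edgeR).

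In DC1a, 6 of 64 passed (5.40% of all genes, with 3.21% higher and 2.19% lower): Ccr7 (log2 fold change 2.82 ± 0.35) and Ctla4 (2.35 ± 0.43) were higher, and Ly6c1 (-2.93 ± 0.34), Ikzf3 (-5.22 ± 0.87), Id3 (-4.50 ± 0.80) and Ets1 (-3.71 ± 0.90) were lower. With the pool as a fixed replicate block Ets1 lost its call (adjusted p = 0.0785 by edgeR). In DC1b, 3 of 64 passed (1.80% of all genes), all higher (1.52%), among them Ly6c1 (3.38 ± 0.28) and Ikzf3 (3.05 ± 0.59).

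In DC2, 7 of 64 passed (4.80% of all genes), 5 higher (3.18%) and 2 lower (1.61%). Rasgrp1, which links the receptor to Ras, was higher by 4.06 ± 0.77 on the log2 scale, Icos, a relative of Cd28, by 4.07 ± 0.81, the adaptor Lcp2 by 1.65 ± 0.43, Arhgap15 by 0.72 ± 0.19 and Id3 by 2.83 ± 0.57. Ctla4 was among the lower genes (-5.94 ± 0.85). The Rasgrp1 levels of the untreated DC2 libraries were 83.9 and 109 CPM, beside at most 2 counts of Cd3e and of Trac and up to 2.03 CPM of Cd3d. With the pool as a fixed replicate block Icos and Arhgap15 lost their calls (adjusted p = 0.143 and 0.0941 by edgeR), and Arhgap15 also did with RLE size factors (0.0553).

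The genes whose levels were most like the mean of the 10 genes were named by Pearson's r of log2 CPM over the 23 libraries. Among the first 10 were Ifng (r = 0.94), Trbv13-2 (0.91), Car1 (0.91), Gpsm2 (0.90), Rhd (0.89), Klf1 (0.88), Tspo2 (0.88), Slc43a1 (0.87) and Gimap7 (0.87). Ifng encodes interferon gamma of T and NK cells, Trbv13-2 is a beta chain segment and Gimap7 a GTPase of lymphocytes, whereas Car1, Rhd, Klf1 and Tspo2 are known from red blood cell precursors. The libraries fall into TLI batch 1 and the rest, and the points share pools and depth, so r over all of them mainly reflects that split. Within the 7 libraries of TLI batch 1, r was 0.65 for Ifng, 0.53 for Trbv13-2 0.75 for Gimap7, 0.57 for Car1, 0.63 for Gpsm2, 0.27 for Slc43a1, 0.05 for Tspo2, -0.25 for Rhd and -0.12 for Klf1. Among the 10 genes themselves, r with the mean of the others over the 23 libraries was highest for Trbc2 (0.95), Cd3g (0.93) and Cd3e (0.91) and lowest for Cd3d (0.47).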

How the data were processed

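RNA was sequenced from 23 libraries of sorted splenic DCs, prepared per the labels with a SMART-Seq v4 kit, which does not mark the strand. The kit is described as one for ultra-low input, with amplification of the cDNA. The values deposited by the authors are estimated counts per gene (expected counts, given as whole numbers), one column per library. Trimmomatic, HISAT2, StringTie and DESeq2 are named in the submitters' processing notes, and the build was GRCm38. StringTie derives such counts from transcript coverage, so reads shared by near-identical or overlapping genes may be split between them. Of 47729 identifiers, 47224 had a symbol and 505 had none.

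CPM was computed from library totals of 19256447 to 36997890. The genes and lists were chosen with earlier results of these data known. The quasi-likelihood test of edgeR 4.0.16 (R 4.3.3) was run on 6 pool sums (19413 genes) and on 23 libraries in 12 groups (22557 genes) after filterByExpr, with TMM factors, and genes with an adjusted p under 0.05 were called. Scripts were tested on simulated data. On data with the spread of the real pools the fit of pool sums made no call, so the absence of a call in that fit says nothing of stability. DESeq2 1.42.0 and limma 3.58.1 were alternatives, as were RLE size factors, other filters, the pool as a block and leaving out each library. Genes of the T-cell lists are named where they passed the test with a mean of at least 1 CPM, up to 3 per list and direction by fold change, and of the other marker lists the 2 with the highest mean, with defining markers added after their values were seen. Likeness was Pearson's r of log2 CPM (prior count 2). Libraries of the same treatment with the same pool/set number in the labels were taken to come from the same pooled mice. The deviations of such libraries from their group means had a correlation of -0.020 to 0.168 over 15 pairs of populations, with 2 over 0.1. Pools are the replicates, and p-values of the pool sums measure the spread between pools. The main fit of 23 libraries had no pool block, so its p-values do not account for libraries that share mice. Some results that the naming rules would include are not reported here.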

Additional observations from a re-analysis of the deposited data

Results flagged for a closer look

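In DC1b after TLI, pool 1 stood apart from the other 3 pools for several of the receptor genes. Its level was 17.8 CPM for Cd3e, 21.1 CPM for Cd247, 54.6 CPM for Trac and 68.9 CPM for the summed Trav and Trbv segments. Each was the highest of 4 libraries by more than Dixon's critical gap, used here only to pick out values. Pools 1 and 2 were of batch 1 and pools 3 and 4 of batch 2. In all, 36 groups were examined and 4 were picked out in this way. The levels were used to choose the genes, and each group mixes the batches that were set against each other. The usual chance rate of about 1 in 20 is therefore no guide, and nothing is read from the number.

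Cd28 was lower in TLI batch 1 than in the untreated mice in DC1b, with means of 4.997 and 43.2 CPM, and higher in DC1a and DC2. The difference between the populations was not tested.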

How the results depend on the processing

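The numbers of T-cell list genes called are given here in the order TLI batch 1 against TLI batch 2, TLI batch 1 against untreated and TLI batch 2 against untreated, then DC1a, DC1b, DC2 and DC3. By edgeR they were 0, 0, 0, 6, 3, 7 and 7, and RLE size factors left each count within 1.5 times. DESeq2 called 34, 17, 23, 19, 6, 14 and 15. Without a filter the counts were 5, 0, 1, 11, 5, 13 and 12. With at least 10 counts in every sample, which leaves fewer genes to test, they were 7 and 4 for TLI batch 1 and untreated against TLI batch 2, and 4 and 3 in DC2 and DC3. With the 23 libraries taken as independent, which ignores the shared mice, the arms gave 24, 2 and 6. With the pool as a random replicate block they gave 34, 13 and 19, with 14 in DC2 and 12 in DC3. With the pool as a fixed replicate block DC3 gave 4. The untreated libraries alone, with fewer samples, gave 0 in DC1a, 4 in DC2 and 0 in DC3. Over all genes, DESeq2 called 4704, 2056 and 2903 between the arms, and 41.9% of its calls in DC2 were higher, against 66.4% by edgeR. In DC1b that share was 84.3% by edgeR, 64.6% by DESeq2 and 71.7% with the stricter filter.

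Leaving out each pool in turn, which leaves an arm with 1 pool assumed to vary like the others, gave 0 list genes in each comparison of arms and 0 to 100 over all genes, the highest for TLI batch 1 against TLI batch 2 without TLI pool 1. At 2 pools a side these counts say nothing of stability. Leaving out each library in turn gave 5 to 8 in DC1a, 1 to 3 in DC1b (1 without untreated pool 2 of DC1b), 4 to 9 in DC2 (4 without untreated pool 1 of DC2) and 4 to 8 in DC3 (4 without TLI pool 1 of DC1a), and calls of single named genes were lost 89 times and kept 417 times. The number of receptor genes with every TLI batch 1 library above all others stayed at 4 to 5. TMM scaling left it at 4, while moving 15 of 132 mean levels by more than the replicate SD. No fold change changed sign. The arms rest on 2 pools each, and the cause of the gap between edgeR and the other tools was not tested.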

Other observations

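Variable segments of immunoglobulin, counted in the same way as those of the T-cell receptor, had another distribution over the libraries. The Ighv and Igkv genes summed to 297 to 14886 CPM in TLI batch 1, 355 to 29945 CPM in TLI batch 2 and 28.6 to 23993 CPM in the untreated mice. Between 36 and 116 of these genes were over 3 counts in TLI batch 1, 45 to 143 in TLI batch 2 and 19 to 149 in the untreated mice, so the arms overlapped.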
